A study of Mus musculus with 4 samples.

Results

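Lysosomal hydrolases, lysosomal membrane proteins and the vacuolar proton pump (V-ATPase) that acidifies the organelle were followed as a set of 35 genes in cDC1, the type 1 conventional dendritic cells of the mouse. The set was chosen by gene symbol. It holds 17 V-ATPase genes and 18 genes of proteases, lipid-handling proteins and membrane glycoproteins. Of the 35 genes, 34 had a probe set on the array and Atp6v0c was not analysed here. Of the 34, 33 had a log2 signal of 5.43 or more on 1 array or several. This limit is the median of all values in the table. Ctsk was below it on all 4 arrays. These 33 stand among 11064 named genes past the same limit, out of 17250 named genes with a probe set. The gene Atp6v1g3 passed the limit only through the array on which it was highest, so counts and medians are also given without it.

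The samples came from C57BL/6 mice aged 10 weeks, labelled female, and 1 array was hybridised for each of 4 groups. The groups were wild-type (WT) cells with lipopolysaccharide (LPS, 100 ng/ml), WT cells with LPS and recombinant mouse XCL1 (100 ng/ml), XCR1-deficient (KO) cells with LPS, and KO cells with LPS and XCL1. All groups had LPS, a bacterial ligand of Toll-like receptor 4, so none shows unstimulated cells. XCR1 is a chemokine receptor carried mainly by cDC1, and XCL1 binds it. The sources used here do not give the tissue of origin, how the receptor was deleted, how many mice gave each sample or how long the cells were treated.

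With 1 array per group there is no replicate, no error and no test. Every difference below sets 1 array against another on the log2 scale. A gene counts as called in a pair at a difference of 1.5-fold or more, which is 0.585 on that scale. Genes with several probe sets give the only yardstick of error within an array. Over 442 such genes, the SD per probe set of a difference was 0.17 for XCL1 in WT, 0.20 for XCL1 in KO, 0.21 for KO against WT with LPS and 0.23 with LPS and XCL1. A probe set's signal depends on its probes, so levels of different genes are not compared.

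Several facts of the series bear on the genotype comparisons. Array names carry 2 prefixes and the genotypes share 0 of them. What the prefixes mark is not known here, and it cannot be told apart from the genotype. Xist, the RNA that silences an X chromosome, had signals of 7.95 and 7.91 on the WT arrays and 4.64 and 4.57 on the KO arrays, against labels of female for all. Xcr1 itself had 6.42 and 7.19 in WT and 5.54 and 5.11 in KO. Of the 14 cDC1 markers listed, 13 were measured and 12 were past the limit, 11 of them on all 4 arrays. Their medians in KO against WT were -0.13 with LPS and -0.17 with LPS and XCL1, with 7 and 8 of 12 below 0. Xcr1 is among these 12. All genes had medians of -0.05 and -0.04, with 6653 and 6284 of 11064 below 0. With each array centred on its gene median the cDC1 medians were -0.03 and -0.06, and those of all genes 0.05 and 0.07. All 10 measured B cell markers and all 7 plasmacytoid DC markers were past the limit too. In bulk samples, fewer cells of a type and less RNA per cell cannot be told apart.

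The V-ATPase is a rotary pump. Its cytosolic V1 sector hydrolyses ATP and turns a rotor in the membrane-bound V0 sector, which carries protons into endosomes, phagosomes and lysosomes. Cathepsins and most other lysosomal enzymes mature and work at acid pH. In dendritic cells the pace of acidification and proteolysis bears on how much antigen survives for presentation, cathepsin S trims the invariant chain of MHC class II, and cDC1 are known for presenting ingested antigen on MHC class I.

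The lysosomal genes differed little between the arrays. No member was called with XCL1 in WT, where 0.56% of all genes were, and Atp6v1g3 alone was called with XCL1 in KO, where 1.01% were. In KO against WT with LPS, Ctse was higher and Hexa lower, 2 of 33 members against 2.01% of all genes (1% higher and 1% lower). With LPS and XCL1, Atp6v1g3 alone was called and was higher, against 3.46% of all genes (1.66% higher and 1.8% lower). The difference between the XCL1 effects of the genotypes reached 1.5-fold for Ctse and Atp6v1g3, against 2.9% of all genes, and 0 of 33 members were called in the same direction in both genotype pairs, where 0.705% of all genes were.

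**Figure D1:**
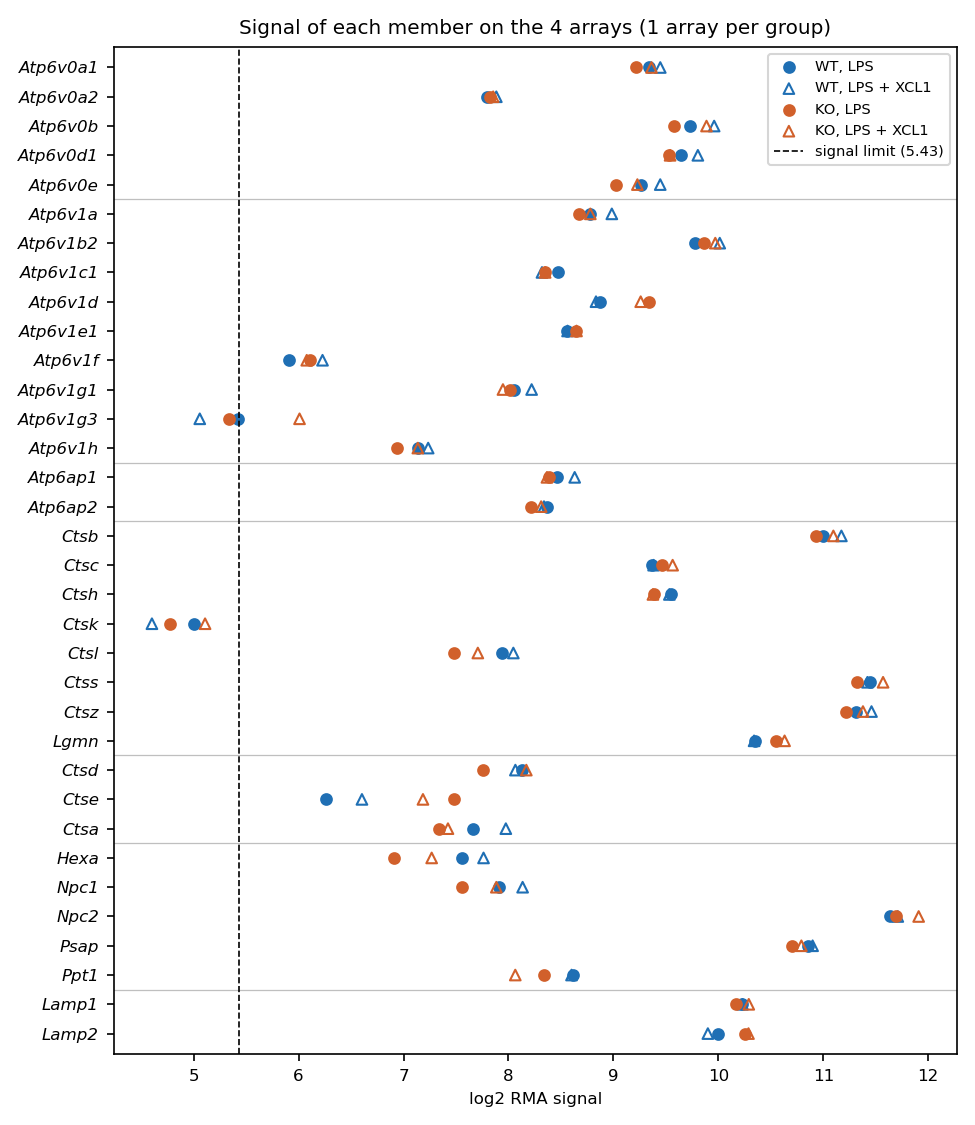
Log2 RMA signal (horizontal axis) of each of the 34 measured members on the 4 arrays, grouped by role. Circles are arrays with LPS and triangles arrays with LPS and XCL1, blue for WT and orange for KO, with 1 array per group and the signal limit of 5.43 dashed. Most members have their 4 points close together, while Ctse has both KO points (7.48 and 7.19) to the right of both WT points (6.26 and 6.60), and Ctsk lies left of the limit. Positions of different genes are not comparable.

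The V0 sector was measured through 5 subunits. Atp6v0a1 and Atp6v0a2 encode forms of the large subunit that targets the pump to membranes and holds the proton half-channels. Atp6v0a1 had signals of 9.34 and 9.45 in WT and 9.22 and 9.36 in KO, each pair being LPS and then LPS with XCL1. Atp6v0a2 had 7.80 and 7.88 in WT and 7.83 and 7.85 in KO, a range of less than 0.1. Atp6v0b, a proteolipid of the rotor ring, had 9.73 and 9.96 in WT and 9.58 and 9.89 in KO. Its XCL1 differences, 0.23 and 0.31, were the largest of the sector in both genotypes. Atp6v0d1, which couples the ring to the central shaft, had 9.65 and 9.80 in WT and 9.53 and 9.54 in KO. The small subunit gene Atp6v0e had 9.27 and 9.45 in WT and 9.02 and 9.23 in KO. All 5 differences with XCL1 were above 0 in both genotypes, with medians of 0.16 and 0.15 where all genes had 0.03 and 0.04. With each array centred on its gene median all 5 stayed above 0 in WT, but 3 of 5 did in KO. None of the 5 came near 1.5-fold.

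The V1 sector varied more from subunit to subunit. Atp6v1a, the catalytic subunit, had 8.77 and 8.98 in WT and 8.68 and 8.78 in KO. Atp6v1b2, the other subunit of the catalytic head, had 9.78 and 10.01 in WT and 9.87 and 9.97 in KO. With XCL1 these head subunits differed by 0.21 and 0.24 in WT and by 0.10 each in KO. A second probe set of Atp6v1b2 gave 0.46 in WT and 0.19 in KO, so the probe sets of this gene differed by more in WT than most of the differences described here. Atp6v1c1, of the stator, had 8.48 and 8.32 in WT and 8.35 on each KO array. Its difference of -0.16 with XCL1 in WT ran against that of the head subunits. The stator gene Atp6v1e1 had 8.56 on each WT array and 8.64 and 8.65 in KO, the steadiest values of the sector. Atp6v1f, of the central stalk, had dim signals of 5.91 and 6.23 in WT and 6.11 and 6.08 in KO. The regulatory subunit Atp6v1h had 7.14 and 7.23 in WT and 6.94 and 7.14 in KO.

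Atp6v1d, which encodes the rotor shaft, had the largest genotype difference among the V-ATPase genes that recurred in sign. It had 8.87 and 8.83 in WT and 9.34 and 9.26 in KO. Both KO arrays lay above both WT arrays, by 0.47 in the LPS pair and 0.43 in the pair that also had XCL1, or 1.38-fold and 1.34-fold, which is under the threshold. Centring on the gene median gave 0.57 and 0.53, also under it. Its XCL1 differences were -0.04 and -0.08.

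The G subunit of the stator is encoded by genes of different tissue range, Atp6v1g1 in most tissues and Atp6v1g3 mainly in kidney and inner ear. Atp6v1g1 had 8.05 and 8.22 in WT and 8.02 and 7.95 in KO. Its other 2 probe sets were below the limit on all arrays. Atp6v1g3 had 5.42 and 5.06 in WT and 5.33 and 6.01 in KO, so it was past the limit on the KO array with LPS and XCL1 and on no other. As measured, this array was higher by 0.68 than the KO array with LPS and by 0.95 than the WT array with XCL1. With the other signals raised to the limit both differences were 0.58, just under 1.5-fold, and the call rests on that 1 array and on signals near the limit. The accessory genes, Atp6ap1 (8.46 and 8.63 in WT, 8.39 and 8.37 in KO) and the prorenin receptor gene Atp6ap2 (8.37 and 8.34 in WT, 8.21 and 8.31 in KO), had no difference of 0.3 or more in a pair.

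Over the 15 V-ATPase genes past the limit other than Atp6v1g3, 12 were above 0 with XCL1 in WT and the median was 0.16, or 0.09 with centring. Of all 11064 genes 6448 were above 0, with a median of 0.03, or -0.04 with centring. In KO 11 were above 0, against 6604 of all 11064 genes. The median was 0.03, but -0.03 with cyclic loess and -0.04 with centring. All genes had medians of 0.04, 0.0045 and -0.02 in that order. The sign in KO thus depended on the scaling, and the place slightly below all genes depended on leaving out Atp6v1g3. With it, and without rescaling, the 16 genes had medians of 0.13 in WT and 0.06 in KO, both above those of all genes. In KO against WT the medians were -0.10 in the LPS pair and -0.08 in the pair with XCL1, and 0.0040 and 0.02 with centring. All genes had -0.05 and -0.04, and 0.05 and 0.07 with centring.

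**Figure D2:**
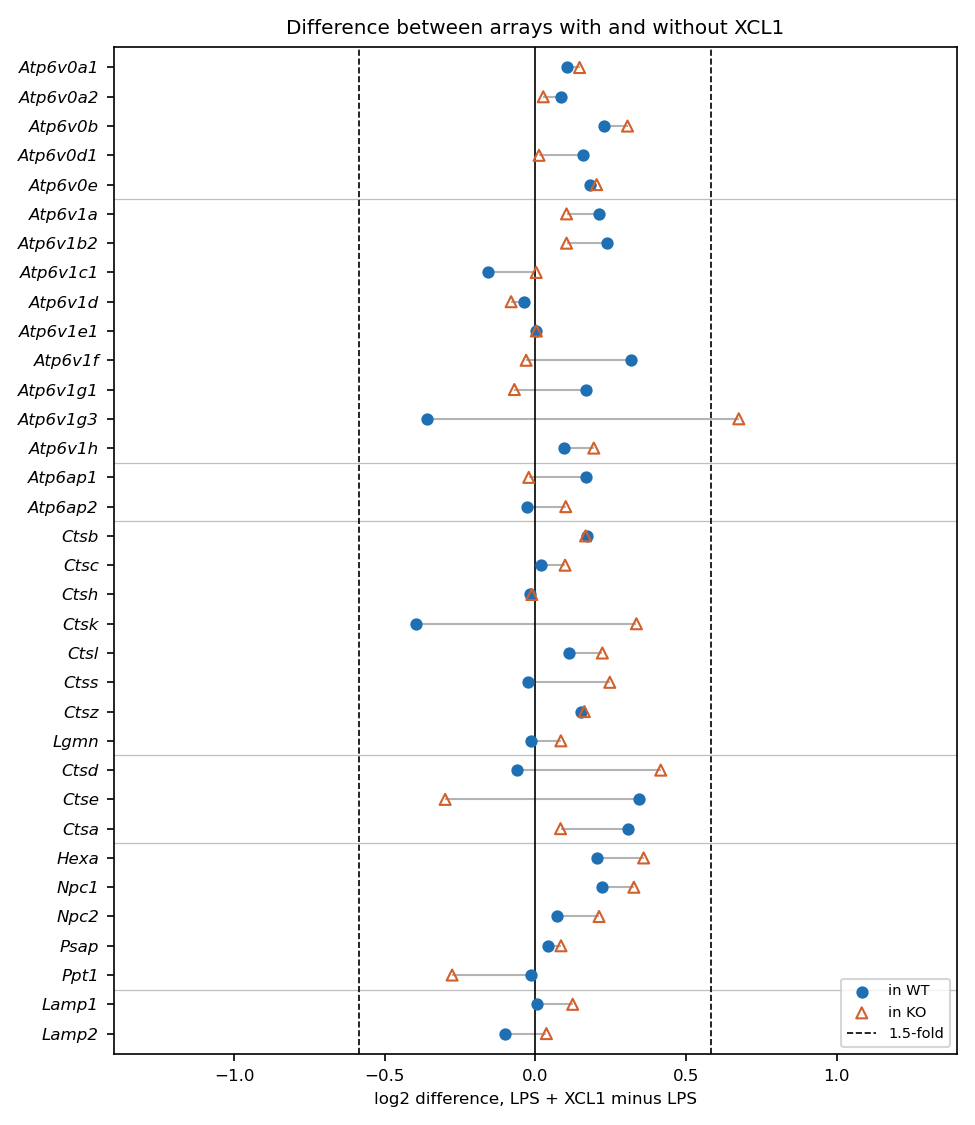
Log2 difference between the arrays with and without XCL1, all with LPS (horizontal axis) for each measured member, in WT (blue circles) and KO (orange triangles), 1 pair of arrays per genotype, with 1.5-fold dashed. The points of the V0 sector at the top all lie right of 0, and Atp6v1g3 at 0.68 in KO is the 1 point past a dashed line. Atp6v1g3, Ctsk and Ctse have their points farthest apart, on opposite sides of 0.

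The cysteine proteases had no call in a pair. Ctsb, a broad-acting cathepsin, had 11.00 and 11.17 in WT and 10.93 and 11.10 in KO. Ctsz, a carboxypeptidase, had 11.31 and 11.46 in WT and 11.22 and 11.38 in KO. In these 2 genes XCL1 differences were nearly the same in both genotypes, 0.17 and 0.17 for Ctsb and 0.15 and 0.16 for Ctsz. Ctss, the invariant chain protease, had 11.44 and 11.42 in WT and 11.32 and 11.57 in KO, so its XCL1 difference was -0.02 in WT and 0.25 in KO. Ctsh, an aminopeptidase, had 9.55 and 9.53 in WT and 9.39 and 9.38 in KO, with XCL1 differences of -0.02 and -0.01. Ctsc, which activates the serine proteases of granules, had 9.36 and 9.38 in WT and 9.47 and 9.56 in KO. The 2 KO arrays lay above the WT arrays for Ctsc and below them for Ctsh, by less than 0.2 in each pair.

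Ctsl and Lgmn differed by genotype in opposite directions. Ctsl, which in mouse also processes the invariant chain in thymic epithelium, had 7.94 and 8.05 in WT and 7.49 and 7.71 in KO, lower by 0.45 and 0.34. Lgmn, the asparaginyl endopeptidase that activates other cathepsins and Toll-like receptors of endosomes, had 10.35 and 10.34 in WT and 10.55 and 10.63 in KO, higher by 0.19 and 0.29. Ctsk, the collagen-degrading cathepsin of osteoclasts, lay between 4.60 and 5.11 on the 4 arrays, all below the limit.

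The largest genotype difference in the set belonged to Ctse. It encodes cathepsin E, an aspartic protease of endosomes known from stomach, lymphoid cells and red cells. It had signals of 6.26 and 6.60 in WT and 7.48 and 7.19 in KO, so the WT and KO arrays did not overlap. The difference was 1.23 with LPS, or 2.34-fold, and 0.581 with LPS and XCL1, just under the threshold of 0.585. It passed the threshold in the second pair with cyclic loess (0.62) and with centring (0.69), and so 2 members were then higher in that pair and 0 lower. With XCL1 the genotypes went opposite ways, by 0.35 in WT and -0.30 in KO, and the difference between them, 0.64, was not tested.

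Markers of other cells also differed between the genotypes, some lists upward and some downward in KO. The erythroid list had 6 of its 11 genes measured and 4 past the limit. All 4 were above 0 in both genotype pairs, with medians of 1.18 and 1.14, and 3 of 6 were below the limit with LPS in WT and 2 of 6 in KO. Rhag passed the limit through the KO arrays only (5.30 and 5.30 in WT, 6.36 and 6.30 in KO). Car1 passed it in WT with LPS (5.48) but not with added XCL1 (5.29). The count and medians of the 4 are thus partly set by the limit. The mean log2 signal of the 6 was 5.49 and 5.42 in WT and 6.29 and 6.27 in KO. The 10 B cell markers measured were all below 0, with medians of -0.44 and -0.53, and their mean log2 signal was 8.15 and 8.21 in WT and 7.66 and 7.65 in KO. The 7 T cell markers past the limit had medians of -0.42 and -0.47, with mean signals over all 8 measured of 6.35 and 6.37 in WT and 5.94 and 5.85 in KO. The 9 neutrophil markers past the limit had medians of 0.21 and 0.32, with 7 above 0 in each pair. The 13 macrophage and monocyte markers had 0.13 and 0.09, with 8 above and 5 below 0 in each pair. The part of these cells in the genotype differences of the lysosomal genes was not tested.

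Ctsd and Ctsa complete the cathepsins. Ctsd, the main aspartic protease of lysosomes, had 8.13 and 8.07 in WT and 7.75 and 8.17 in KO. The KO array with LPS was the low value, which gave an XCL1 difference of 0.42 in KO and -0.06 in WT. Ctsa, a serine carboxypeptidase that also protects other lysosomal enzymes from degradation, had 7.67 and 7.97 in WT and 7.34 and 7.42 in KO. Both KO arrays were below both WT arrays, by 0.33 and 0.55.

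Among the lipid-handling proteins, 4 of 5 members had lower signals in KO than in WT. Of all 11064 genes, 6653 were below 0 with LPS and 6284 with LPS and XCL1. Hexa, the alpha subunit of beta-hexosaminidase A, which degrades gangliosides, had 7.56 and 7.76 in WT and 6.91 and 7.27 in KO. It was 1.57-fold lower with LPS (-0.65) and 1.41-fold lower with LPS and XCL1 (-0.49). The call with LPS was lost with cyclic loess (-0.581) and with centring (-0.55), which left 1 member higher and 0 lower in that pair. Ppt1, which removes palmitate from proteins, had 8.62 and 8.60 in WT and 8.34 and 8.06 in KO, lower by 0.27 and 0.54. Npc1, the membrane protein of cholesterol export, had 7.91 and 8.13 in WT and 7.56 and 7.88 in KO. Its partner in the lumen, Npc2, had 11.64 and 11.71 in WT and 11.70 and 11.91 in KO, so the partners had opposite signs, -0.36 and -0.25 for Npc1 and 0.06 and 0.20 for Npc2. Psap, the precursor of the saposins, had 10.86 and 10.90 in WT and 10.71 and 10.79 in KO. The medians of the 5 were -0.27 and -0.25, and with centring -0.17 and -0.15.

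The major glycoproteins of the lysosomal membrane differed from each other. Lamp1 had 10.22 and 10.23 in WT and 10.17 and 10.29 in KO, with differences from -0.06 to 0.12. Lamp2, whose forms serve autophagy and membrane stability, had 10.00 and 9.90 in WT and 10.25 and 10.29 in KO. Both KO arrays were above both WT arrays for Lamp2, by 0.25 and 0.39. Lamp2, Atp6ap1 and Atp6ap2 lie on chromosome X, and for Atp6ap1 and Atp6ap2 the KO arrays lay below the WT arrays, by 0.07 and 0.16 with LPS.

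**Figure D3:**
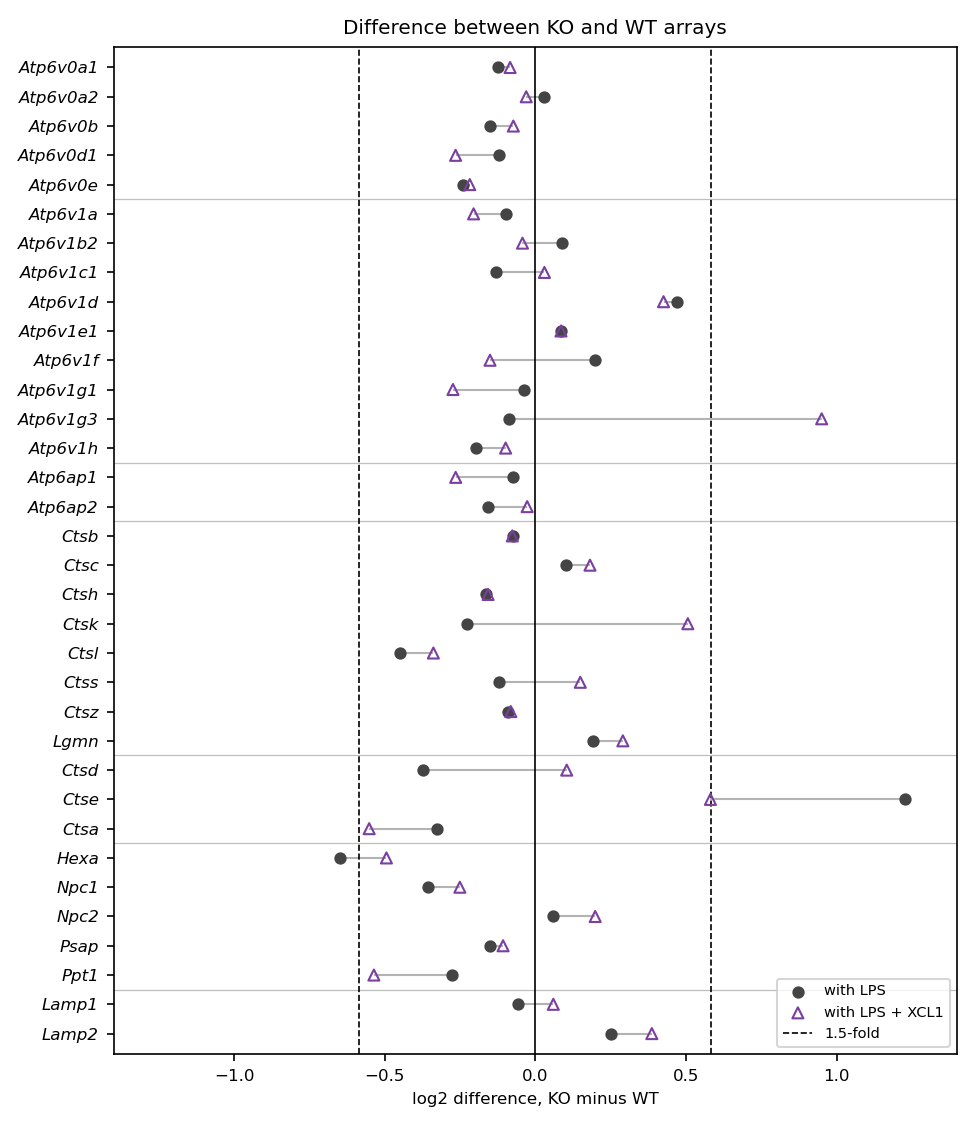
Log2 difference between KO and WT arrays (horizontal axis) for each measured member, in the LPS pair (dark circles) and the pair with added XCL1 (purple triangles), 1 pair of arrays each, with 1.5-fold dashed. The 2 pairs share no array. Ctse (1.23), Hexa (-0.65) and Atp6v1g3 (0.95) have a point past a dashed line, Ctse lies at the line in its second pair, and Atp6v1d, Ctsl and Lamp2 have both points on 1 side of 0.

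The signs recurred between pairs that share no array somewhat as they did over all genes. In the genotype pairs 25 of 33 members (75.8%) had the same sign, 7 above and 18 below 0, against 67.6% of all genes. Among the 17 members outside the V-ATPase 14 did (82.4%), with a Pearson's r of 0.81 across these genes, and among the 16 V-ATPase members 11 did (68.8%), with an r of 0.31. Without Atp6v1g3 11 of 15 did (73.3%), with an r of 0.68 and a Spearman's rho of 0.22. Over all genes r was 0.53, and genes are not independent replicates. For XCL1 in WT and KO, 22 of 33 members (66.7%) had the same sign against 56.3% of all genes. The XCL1 differences themselves had an r of -0.29 across the members, 0.0044 without Atp6v1g3 and 0.13 over all genes. The 2 samples of a genotype may share mice, which is not known here, so recurrence is no repeat across mice.

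Counting members by whether arrays overlapped gave shares close to the background for genotype. Both KO arrays lay above both WT arrays for 6 members (18.2%), where 18.9% of all genes did so. They lay below for 13 members (39.4%), against 33.2% of all genes. Both arrays with XCL1 lay above both arrays without it for 9 members (27.3%), against 18.5%. These were Atp6v0a1, Atp6v0a2, Atp6v0b, Atp6v1a, Atp6v1b2, Ctsb, Ctsz, Lamp1 and Npc2. For 0 members did both lie below, against 9.35% of all genes. Some margins were small, as for Lamp1 (10.23 in WT with XCL1, 10.22 without) and Atp6v1a (8.78 in KO with XCL1, 8.77 in WT without). With centring, the XCL1 difference was below 0 for Lamp1 in WT (-0.06) and for Atp6v0a2 in KO (-0.04), so both left the group of 9. The counts of members and of all genes were not repeated with centring.

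Many lysosomal genes carry a CLEAR element, a palindromic E-box bound by TFEB and its relatives, near their start site. Promoters of 26 members were found by symbol in a RefSeq table (build GRCm38.p6), 31 promoters of 300 bases in all, each from 250 bases before to 50 after the start site. The E-box core CACGTG was in a promoter of 9 of the 26 (34.6%), against 8.09% of 27025 genes. These are all genes with a listed promoter, with no limit on signal, and the share among genes past the limit was not counted. The longer TCACGTGA, which contains the core, was in 5 of 26 (19.2%) against 1.12%, and the 10-base CLEAR palindrome, which adds a G before and a C after it, in 0 of 26 against 0.37% of genes. Each of these words is its own reverse complement, so both strands were searched at once. A match is a description of the letters and no evidence of binding. The 5 members with TCACGTGA and the 2 others with repeated cores are shown, because they hold the longest or the most repeated matches, with the word in capitals and the rest in lower case. Positions count from the first transcribed base as 1, with -1 just before it.
Atp6v0d1, chr8:105566050-105566079, minus strand, from -15 to 15: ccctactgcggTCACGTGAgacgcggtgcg
Atp6v0e, chr17:26676387-26676416, plus strand, from -9 to 21: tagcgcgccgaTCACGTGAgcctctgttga
Atp6v1a, chr16:44139373-44139402, minus strand, from -143 to -114: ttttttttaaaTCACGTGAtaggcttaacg
Ctsa, second listed start site, chr2:164833758-164833787, plus strand, from -15 to 15: tgTCACGTGAtgcagatgcTCACGTGAcca
Ctsd, chr7:142387908-142387937, minus strand, from -110 to -81: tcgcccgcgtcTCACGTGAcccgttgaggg
Atp6v0b, chr4:117887339-117887368, minus strand, from -39 to -10: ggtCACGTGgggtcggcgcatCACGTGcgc
Lamp1, chr8:13159096-13159155, plus strand, from -65 to -6: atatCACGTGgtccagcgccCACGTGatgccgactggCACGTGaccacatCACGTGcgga

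Lamp1 holds 4 cores within 60 bases and Ctsa 2 copies of TCACGTGA within 30. Ctsl and Lgmn are the other 2 members with a core. With XCL1 the 9 members with a core had median differences of 0.16 in WT, from -0.06 for Ctsd to 0.31 for Ctsa, and 0.12 in KO. The 15 members past the limit with a promoter and no core had medians of 0.02 and 0.10. In KO against WT the medians were -0.15 and -0.20 with a core and -0.09 and -0.03 without.

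The rest of the lysosomal pathway was described through 5 lists of 129 genes, of which 108 were past the limit. Among the other V-ATPase genes, 12 of 16 were past it and none was called in the 4 pairs. Among the other lysosomal hydrolases, 34 of 42 were past it. Gusb, beta-glucuronidase, was lower in KO in both pairs, at 8.98 and 9.16 in WT and 8.30 and 8.22 in KO. Arsb, which removes sulfate from glycosaminoglycans, was lower with LPS and XCL1 (-0.60), and so was the beta-mannosidase gene Manba (-0.62). So 2.94% of this list was lower with LPS, against 1% of all genes, and 8.82% with LPS and XCL1, against 1.8%. With centring Gusb alone was lower, and with LPS and XCL1 only. The dipeptidyl peptidase gene Dpp7 was higher with XCL1 in KO (0.59), at 5.17 without it, below the limit, and 5.76 with it, and was not called with centring. Its call made 2.94% of the list higher there, against 0.47% of all genes. The 34 hydrolases had medians of -0.20 and -0.19 in KO against WT, with 24 below 0 in each pair. All 11064 genes had medians of -0.05 and -0.04, with 6653 and 6284 below 0. Centring on the gene median removed shifts of -0.10 and -0.10 from the genotype differences and left hydrolase medians of -0.10 and -0.08, where all genes then had 0.05 and 0.07. With XCL1 the hydrolase medians were 0.12 in WT and 0.04 in KO, and 0.05 and -0.03 with centring. All genes had 0.03 and 0.04, and -0.04 and -0.02 with centring.

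The lists of lysosomal membrane genes and of sorting genes had 4 calls in the genotype pairs, all lower in KO. Of 30 membrane genes listed 27 were past the limit and Cd63, a tetraspanin, was lower in KO with LPS and XCL1 (-0.66), at 7.62 in WT and 6.97 in KO, which is 3.70% of the list against 1.8% of all genes. The 30 genes of enzyme sorting and lysosome regulation were all past it. Nagpa, which uncovers the mannose 6-phosphate tag on enzymes, was lower in KO with LPS (-0.73) and not with LPS and XCL1 (-0.02). The sorting receptor Sort1 was lower with LPS too (-0.61), so 6.67% of this list was lower there against 1% of all genes. Lamtor1, an anchor of nutrient signalling on lysosomes, was lower with LPS and XCL1 (-0.63), 3.33% of the list. With centring Nagpa alone of these 4 was still called. Tfeb had signals between 5.69 and 5.77 on the 4 arrays and Tfe3 8.05 and 8.23 in WT and 7.79 and 7.86 in KO. Of the protease inhibitors 5 of 11 were past the limit and none was called, Cst3, cystatin C, lying between 11.86 and 11.92 on all arrays.

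**Figure D4:**
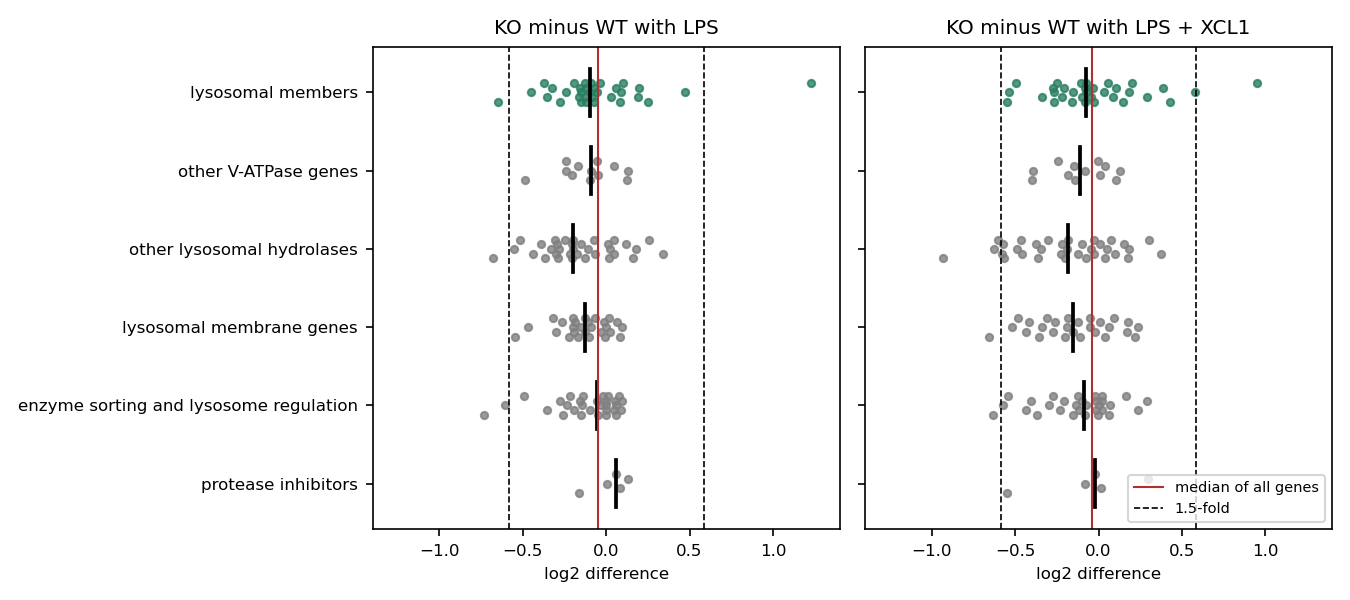
Log2 difference between KO and WT arrays (horizontal axis) in the LPS pair (left) and the pair with added XCL1 (right) for the 33 members past the limit (green) and the genes of 5 added lists (grey), 1 point per gene. Black bars are medians, the red line is the median of all genes (-0.05 and -0.04) and dashed lines mark 1.5-fold. The other lysosomal hydrolases have medians of -0.20 and -0.19, left of the red line, and the members medians of -0.10 and -0.08.

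Over the 33 members, the medians were 0.10 and 0.10 with XCL1 in WT and KO, against 0.03 and 0.04 over all genes. They were -0.10 and -0.08 in KO against WT, against -0.05 and -0.04. With centring they changed sign, to 0.0040 and 0.03 (-0.0074 and 0.03 without Atp6v1g3), but all genes then had 0.05 and 0.07. The member medians thus lay below those of all genes with and without centring. Without Atp6v1g3 the 4 medians were 0.10, 0.10, -0.11 and -0.08, and over all 34 measured members 0.09, 0.10, -0.11 and -0.07.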

How the data were processed

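The authors deposited RMA signals on the log2 scale, per the labels, for each gene-level probe set of the MoGene 2.0 ST array. RMA equalises the arrays over all probe sets, so a shift of most probe sets in 1 direction cannot be seen. The genes past the limit are a part of these, and their array medians ran from 6.88 to 7.05. The sources used here name no software version or annotation build. Array medians were 5.40 to 5.44, and correlations between arrays across genes 0.983 to 0.993. No depth exists for arrays, and their number limits the precision.

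Of 41345 probe sets, 23521 had 1 gene symbol in the array's annotation table, 1814 several and 16010 none. Probe sets with several symbols (0 held a member) and 5104 of predicted genes, small RNAs, receptor segments and olfactory and vomeronasal receptors were left out. The probe set of highest mean signal stands for a gene.

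Differences, counts and medians were computed in Python 3.11.15 with pandas 2.3.3, and cyclic loess (span 0.7, 3 iterations) with limma 3.58.1 in R 4.3.3. The counting was tested on simulated data. The members, lists and alternatives were chosen with earlier results of these data known. All members were to be described, with those called in a pair given in full, and up to 4 called genes per added list and pair. Alternatives were a 2-fold threshold, no limit, a limit at the 75th percentile (6.91), cyclic loess, centring, the mean of probe sets, signals raised to the limit, and keeping predicted genes. Markers listed for osteoclasts, mast cells and basophils, and plasmacytoid DCs had genotype medians of 0.07 and 0.02, 0.30 and 0.22, and -0.35 and -0.47. These lists were short or mixed. Of 6 osteoclast markers past the limit, 4 were above 0 in each pair. Of 8 mast cell and basophil markers 4 were past it, and Mcpt8 (5.02) and Cpa3 (5.29) were below it in WT with LPS. Of 7 plasmacytoid DC markers, 3 were above and 4 below 0 in each pair.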

Additional observations from a re-analysis of the deposited data

Results flagged for a closer look

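In 3 genes the XCL1 difference had opposite signs in WT and KO and the gap between them was at least 1.5-fold. The difference between genotypes was not tested, and each value combines 4 single arrays. For Atp6v1g3 the gap was -1.04, from -0.36 in WT and 0.68 in KO, and -0.58 with signals raised to the limit. For Ctse it was 0.64, from 0.35 and -0.30, on arrays that all lay past the limit. For Ctsk it was -0.73, from -0.40 and 0.34, with all 4 signals below the limit.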

How the results depend on the processing

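No paired analysis was possible because every array has replicate number 1, so that a replicate block would have a single level. Leaving out an array would empty its group. An additive fit of genotype and XCL1 over the 4 arrays was not run. At 2-fold, 0 members were called for XCL1 in KO, where 0.0542% of all genes were. For KO against WT 1 was called with LPS (Ctse) and 0 with LPS and XCL1, against 0.217% and 0.389%. For the difference between the XCL1 effects 1 was called (Atp6v1g3, -1.04), against 0.199%. With the stricter limit on signal, 0 members were called for XCL1 in KO, 0 between the genotypes with XCL1, and 1 for the difference between XCL1 effects. The shares of all genes were 0.426%, 3.19% and 1.18%. The same 3 counts of members, 0, 0 and 1, came from raising signals to the limit, against 0.597%, 2.74% and 1.86% of all genes. There Atp6v1g3 had 0 for XCL1 in WT, 0.58 between the genotypes with XCL1 and -0.58 for the difference between effects. Cyclic loess and centring each gave 1 member for KO against WT with LPS and 2 with LPS and XCL1. Of all genes 1.91% and 3.38% were called with cyclic loess, and 2.3% and 3.88% with centring. Centring moved the medians over members to 0.027 for XCL1 in WT and 0.0348 in KO, where all genes then had -0.04 and -0.02. It turned the genotype medians from -0.10 to 0.0040 and from -0.08 to 0.0281, where all genes then had 0.05 and 0.07. Dropping the limit, averaging probe sets and keeping predicted genes left the 5 counts of members within 1.5 times. Signals near the limit, as for Atp6v1g3 and Ctsk, have no measured background.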
